A study of Mus musculus with 8 samples.

Results

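Glul, the gene of glutamine synthetase, and 8 further genes that mark the hepatocytes around the central vein of the liver lobule were followed across livers of mice given acetaminophen (APAP). The genes are Glul, Rhbg, Oat, Slc1a2, Lgr5, Axin2, Tbx3, Rgn and Gulo. They were taken by symbol from a list drawn up with earlier results of these data known, and all 9 are among the 22183 genes of the deposited table. All 9 also passed a filter on low counts that left 12722 genes for testing, so no member was lost. The livers are from C57 mice in 3 groups. The APAP_MSC group (3 samples) received 400 mg/kg APAP into the abdomen and MSCs through the tail vein 4 hours later. MSC is the usual abbreviation of mesenchymal stromal cell, and the labels do not say from which tissue these cells came. The APAP_PBS group (3 samples) received the same APAP dose and is labelled with PBS, a salt solution, in place of cells. The CTRL group (2 samples) is labelled control. A single treatment text is attached to all 8 samples, so that CTRL had no APAP is read from its group label, and the labels do not state that CTRL received PBS. Liver was collected at 24 hours. Neither age nor sex of the mice is given in the labels used here. Each p-value sets a difference between groups against the spread of these libraries within groups, and holds for these libraries only. No label ties a sample to an animal of its own, so that spread may be technical. The study asked which genes change in the liver after MSC treatment.

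Blood crosses the lobule from the portal tracts to the central vein, and hepatocytes differ along that path. Those in the thin layer around the central vein make glutamine synthetase, which joins ammonium to glutamate and so takes up ammonium that the periportal urea cycle left behind. Their gene programme depends on Wnt ligands and R-spondin from the endothelium of the central vein, which act through frizzled and LGR receptors on beta-catenin. The wider pericentral zone also holds most of the cytochrome P450 enzymes that turn APAP into a reactive product, and it is where APAP injury is known to be densest. In bulk liver RNA, fewer cells of a type and less RNA per cell cannot be told apart, and this holds for every gene below.

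The members lie on 9 different chromosomes of the GRCm38 build (GENCODE M21 annotation), and all are protein-coding genes. Glul (ENSMUSG00000026473) spans chr1:153899944-153909723 on the plus strand, Rhbg (ENSMUSG00000104445) chr3:88242874-88254709 on the minus strand, and Oat (ENSMUSG00000030934) chr7:132557478-132576398 on the minus strand. Slc1a2 (ENSMUSG00000005089) spans chr2:102658659-102790784 on the plus strand, Lgr5 (ENSMUSG00000020140) chr10:115450311-115587780 on the minus strand, and Axin2 (ENSMUSG00000000142) chr11:108920349-108950783 on the plus strand. Tbx3 (ENSMUSG00000018604) spans chr5:119670669-119684724 on the plus strand, Rgn (ENSMUSG00000023070) chrX:20549787-20562089 on the plus strand, and Gulo (ENSMUSG00000034450) chr14:65986786-66009207 on the minus strand. Rhbg shares 1190 bases of exon on its own strand with the predicted gene Gm38392, so its reads could be split between both. Glul shares 116 bases of exon with Teddm2 on the opposite strand, and Slc1a2, Axin2 and Tbx3 have antisense transcripts over 189, 209 and 115 exonic bases. No strand setting is stated, so a gene and such a partner cannot be told apart. Oat has a processed pseudogene, which makes its count uncertain to the extent that reads were shared. That comes from background knowledge, as pseudogenes were not searched for here for any member.

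Since several members are known targets of beta-catenin, which reaches DNA through TCF and LEF factors, the promoters were read for the core letters that these factors bind. The 250 bases before the transcript start were available for 4 of the 9 members (Glul, Oat, Slc1a2 and Axin2) in the RefSeq promoters of GRCm38.p6. The motifs searched were TCAAAG, whose reverse complement is CTTTGA, and ACAAAG, whose reverse complement is CTTTGT, on both strands. Of 32851 promoter windows of the same length, 13.8% held the first, 16.5% held the second and 27.6% held either. Slc1a2 held 2 matches, 206 and 77 bases before its start, and Glul, Oat and Axin2 held none. The windows of Slc1a2 and Glul are shown because they are the genes with and without a match whose levels varied most between libraries, with the matches in capitals. The Slc1a2 window (chr2:102706188-102706437, plus strand) precedes a RefSeq start 47779 bases inside the GENCODE gene, and the Glul window (chr1:153899679-153899928, plus strand) precedes a start 15 bases upstream of the GENCODE start.
Slc1a2: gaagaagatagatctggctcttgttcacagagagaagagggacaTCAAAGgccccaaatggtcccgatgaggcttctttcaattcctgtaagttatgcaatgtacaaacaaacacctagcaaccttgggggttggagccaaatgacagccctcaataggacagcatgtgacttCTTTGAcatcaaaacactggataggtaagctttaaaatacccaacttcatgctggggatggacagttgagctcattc
Glul: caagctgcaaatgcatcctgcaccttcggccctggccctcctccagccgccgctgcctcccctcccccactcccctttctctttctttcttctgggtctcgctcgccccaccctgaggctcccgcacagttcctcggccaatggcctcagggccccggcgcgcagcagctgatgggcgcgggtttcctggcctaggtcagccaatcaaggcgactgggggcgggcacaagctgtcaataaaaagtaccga
A match describes letters in a window and is not a binding site. The absence of a match says only that these letters are not in this window.

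The libraries held 16261191 to 24516470 estimated counts. Scaled to these totals, before TMM normalization, 3 counts, the level a count of 0 still allows, came to 0.122 to 0.184 CPM. CPM are counts scaled to the total of the library. Levels are given in CPM after TMM normalization except where another scale, or FPKM, which is scaled to gene length, is named. Tests are edgeR's quasi-likelihood test over all 8 libraries with Benjamini-Hochberg adjustment over all 12722 genes, and a gene is called at an adjusted p under 0.05. Hepatocyte markers were abundant in every library, and their 11 tested genes summed to 95753 to 104795 CPM in APAP_MSC, 88769 to 102763 CPM in APAP_PBS and 110708 to 126045 CPM in CTRL. On the first principal component, which held 45.0% of the variance, APAP_MSC replicates 1 to 3 stood at 13.5, -14.4 and 22.9, APAP_PBS replicates 1 to 3 at 34.3, 22.9 and 21.6, and CTRL replicates 1 and 2 at -46.1 and -54.5. APAP_MSC replicate 2 thus stood apart from the other 5 APAP libraries, on the side of CTRL. The members' levels and fold changes are therefore also given without it. Its removal from the FPKM means and the likeness between genes was chosen after seeing the data.

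Compared with CTRL, the pericentral genes were at a lower level in APAP_PBS livers, and 4 of the 9 passed the test as lower. These were Rhbg, Oat, Rgn and Gulo, with levels between 20.1% and 51.9% of the CTRL mean. No member passed as higher. Of all genes tested, 5.97% passed as lower and 4.29% as higher in this comparison. All 9 members had every APAP_PBS library below both CTRL libraries, which held for 22.6% of genes. With CPM by library size alone, or with FPKM, Axin2 and Tbx3 overlapped and 7 members remained apart, against 9.28% and 9.35% of genes. The fitted log2 fold change was below 0 for all 9 members (46.3% of genes), with a median of -1.76 against 0.03 over all genes tested. At an unadjusted p under 0.05, 7 members were lower, all but Slc1a2 and Axin2, as were 13.4% of genes. Glul had the lowest APAP_PBS mean of the 9 relative to CTRL, at 9.99%, but it did not pass the test with all 8 libraries.

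In APAP_MSC livers the group means of all 9 genes lay between those of APAP_PBS and CTRL in CPM. Only Rhbg passed the test as lower than CTRL (3.32% of genes passed as lower), and none passed as higher (2.52% of genes). No member differed from APAP_PBS at the adjusted threshold. Across all genes 0 passed as higher (0.00%) and 1 as lower (0.00786%) in that comparison by edgeR, and 16 and 22 by DESeq2, none of them a member. At an unadjusted p under 0.05, 371 genes (2.92%) were higher, Rhbg and Oat among them, and 471 (3.70%) lower, with no member. Rhbg, Rgn and Gulo were lower than CTRL at an unadjusted p under 0.05 (11.1% of genes), and Glul, Rhbg and Gulo had every APAP_MSC library below both CTRL libraries (17.7% of genes). All 9 fitted fold changes were below 0 against CTRL (48.8% of genes) and above 0 against APAP_PBS (48.7% of genes). The members' median log2 fold change was -0.71 for APAP_MSC against CTRL (0.01 over all genes) and 0.79 for APAP_MSC against APAP_PBS (-0.01 over all genes). APAP_MSC replicate 2 had the highest level of the 6 APAP libraries for all 9 members (22.2% of genes), and without it the APAP_MSC means of Lgr5, Axin2, Tbx3 and Rgn were no longer above those of APAP_PBS. The 3 comparisons share their libraries, so their values for a gene are not independent.

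**Figure D1:**
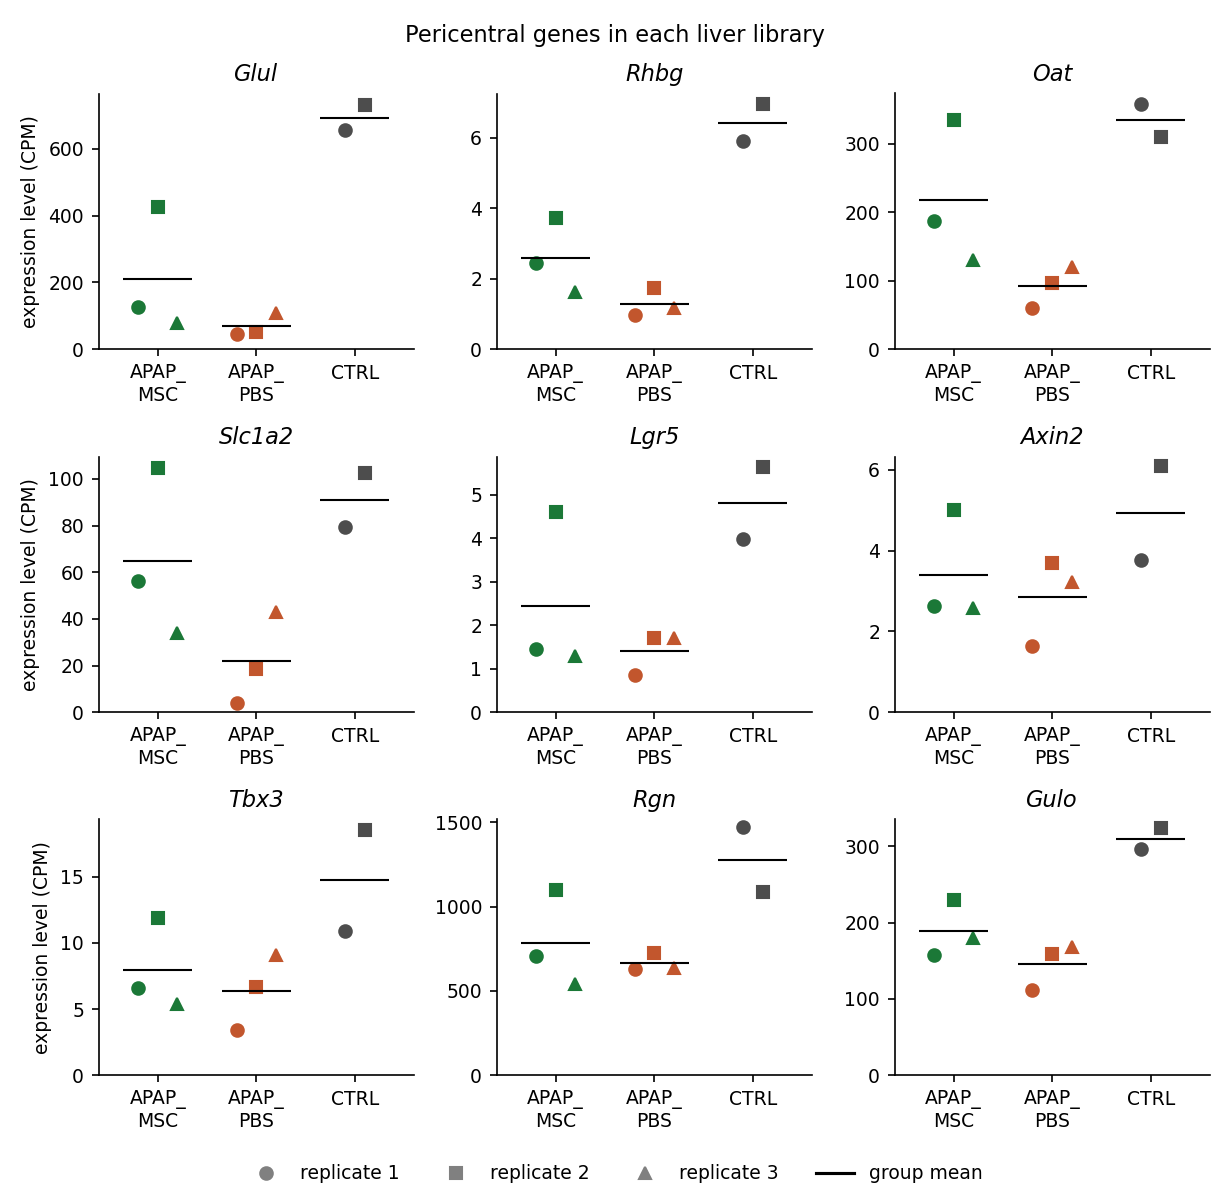
Level of each of the 9 pericentral genes in each library, in TMM-normalized CPM on a linear axis from 0, with 1 panel per gene, a symbol for each replicate and a line at each group's mean; groups run from APAP_MSC through APAP_PBS to CTRL. Glul reads 125, 426 and 79.1 CPM in APAP_MSC against 46.7, 52.7 and 108 CPM in APAP_PBS and 655 and 732 CPM in CTRL, and in every panel the highest APAP library is APAP_MSC replicate 2.

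Among the genes that handle ammonium and glutamate, Glul was at 125, 426 and 79.1 CPM in APAP_MSC replicates 1 to 3, at 46.7, 52.7 and 108 CPM in APAP_PBS replicates 1 to 3, and at 655 and 732 CPM in CTRL replicates 1 and 2. The CTRL libraries lay close together and above all 6 APAP libraries, while APAP_MSC and APAP_PBS overlapped through APAP_PBS replicate 3. The means were 210.0 ± 188 CPM in APAP_MSC (SD, n = 3), 69.3 ± 34.1 CPM in APAP_PBS (SD, n = 3) and 694 ± 53.9 CPM in CTRL (SD, n = 2). The log2 fold change of APAP_PBS against CTRL was -3.32 ± 0.81 (SE, edgeR adjusted p = 0.0614). For APAP_MSC it was -1.72 ± 0.78 against CTRL (edgeR adjusted p = 0.278) and 1.60 ± 0.73 against APAP_PBS (edgeR adjusted p = 0.767). Glul was among the genes with the widest spread within groups, with a quasi-likelihood dispersion of 16.4 against a median of 0.617 over all genes (percentile 99.7). The dispersion was 6.25 without APAP_MSC replicate 2, and Glul then fell in APAP_PBS (-3.32 ± 0.43, edgeR adjusted p = 0.00682) and in APAP_MSC (-2.76 ± 0.48, edgeR adjusted p = 0.0228), both against CTRL. Without APAP_MSC replicate 3 it also fell in APAP_PBS (edgeR adjusted p = 0.0419), and without any other single library it did not pass.

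Rhbg, a membrane channel for ammonium and ammonia that sits in the same cells as glutamine synthetase, was at 2.45, 3.71 and 1.64 CPM in APAP_MSC, at 0.961, 1.74 and 1.17 CPM in APAP_PBS, and at 5.91 and 6.96 CPM in CTRL. Both CTRL libraries exceeded all APAP libraries, and the lowest APAP_MSC library lay just below the highest APAP_PBS one. Rhbg fell in APAP_PBS against CTRL by 2.30 ± 0.36 on the log2 scale (edgeR adjusted p = 0.00344), and this call held in each of the 18 alternative settings run, with adjusted p up to 0.0308. It also fell in APAP_MSC against CTRL, by 1.31 ± 0.34 (edgeR adjusted p = 0.0458). That second call lay near the threshold and was lost without CTRL replicate 1 (adjusted p = 0.134), CTRL replicate 2 (0.190), APAP_PBS replicate 1, 2 or 3 (0.0552, 0.0534 and 0.0738), APAP_MSC replicate 1 (0.128) or APAP_MSC replicate 3 (0.114). It was -1.66 ± 0.34 (edgeR adjusted p = 0.0103) without APAP_MSC replicate 2. Between APAP_MSC and APAP_PBS the difference was 0.98 ± 0.34 (edgeR adjusted p = 0.696, unadjusted p = 0.0138), and 0.62 ± 0.33 without APAP_MSC replicate 2. Gm38392, which shares exon with Rhbg, was at 0.642, 0.984 and 0.117 CPM in APAP_MSC, at 0, 0.580 and 0.819 CPM in APAP_PBS, and at 0.854 and 3.10 CPM in CTRL, and did not pass in APAP_PBS against CTRL (-2.09 ± 1.01, edgeR adjusted p = 0.224).

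Oat, the mitochondrial ornithine aminotransferase that turns ornithine toward glutamate, was at 187, 335 and 131 CPM in APAP_MSC, at 60.4, 96.0 and 120.3 CPM in APAP_PBS, and at 359 and 310.1 CPM in CTRL. It was the only member whose APAP_MSC libraries all lay above all APAP_PBS libraries, an arrangement that 6.81% of genes had, and replicate 2 lay within the CTRL range. Oat fell in APAP_PBS against CTRL by 1.86 ± 0.43 on the log2 scale (edgeR adjusted p = 0.0448). The call was lost without CTRL replicate 1 (adjusted p = 0.172), CTRL replicate 2 (0.139), APAP_PBS replicate 1 (0.0991), 2 (0.107) or 3 (0.0618), or APAP_MSC replicate 1 (0.0676), and was 0.00782 without APAP_MSC replicate 2. The difference between APAP_MSC and CTRL was -0.62 ± 0.43 (edgeR adjusted p = 0.472), or -1.07 ± 0.32 without replicate 2 (0.0875). Between APAP_MSC and APAP_PBS it was 1.24 ± 0.40 (edgeR adjusted p = 0.698, unadjusted p = 0.0186), or 0.78 ± 0.29 without replicate 2 (0.677). 

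Slc1a2, a transporter that brings glutamate into the cell and is best known from astrocytes, was at 56.2, 105 and 34.1 CPM in APAP_MSC, at 3.84, 18.7 and 43.0 CPM in APAP_PBS, and at 79.5 and 102 CPM in CTRL. Its APAP_PBS libraries differed 11.2-fold between the highest and the lowest, the widest range of any member in that group, and APAP_MSC replicate 2 lay above both CTRL libraries. No comparison passed, with -2.06 ± 0.92 for APAP_PBS against CTRL (edgeR adjusted p = 0.229), -0.49 ± 0.91 for APAP_MSC against CTRL (0.821) and 1.58 ± 0.85 for APAP_MSC against APAP_PBS (0.806). With APAP_MSC replicate 2 left out, the APAP_MSC differences were -1.01 ± 0.98 against CTRL (edgeR adjusted p = 0.598) and 1.05 ± 0.91 against APAP_PBS. Its dispersion was 28.3, at percentile 99.9 of all genes. Of 5 markers of astrocytes and other brain cells, Slc1a3, Gfap and Snap25 were too low to test, at most 0.537, 0.545 and 0.0585 CPM in any library. Aqp4, a water channel best known from astrocytes, was at 5.48, 5.10 and 4.13 CPM in APAP_MSC, at 3.62, 4.47 and 7.96 CPM in APAP_PBS, and at 8.33 and 10.9 CPM in CTRL. All its APAP libraries lay below both CTRL libraries, and neither APAP_PBS (-0.86 ± 0.30, edgeR adjusted p = 0.0919) nor APAP_MSC (-0.98 ± 0.30, 0.0780) passed against CTRL. Mbp, a myelin gene, was at 0.25 ± 0.47 in APAP_PBS against CTRL (edgeR adjusted p = 0.789).

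Lgr5, Axin2 and Tbx3 did not pass the test in any comparison with all 8 libraries. Lgr5, a receptor for R-spondin, was at 1.46, 4.61 and 1.28 CPM in APAP_MSC, at 0.848, 1.70 and 1.70 CPM in APAP_PBS, and at 3.99 and 5.64 CPM in CTRL. Apart from APAP_MSC replicate 2, which lay within the CTRL range, all APAP libraries were below CTRL. The log2 fold change was -1.76 ± 0.54 for APAP_PBS against CTRL (edgeR adjusted p = 0.0710), -0.97 ± 0.52 for APAP_MSC against CTRL (0.317) and 0.79 ± 0.51 for APAP_MSC against APAP_PBS (0.807). Without APAP_MSC replicate 2, Lgr5 fell in APAP_PBS (-1.75 ± 0.33, edgeR adjusted p = 0.00642) and in APAP_MSC (-1.81 ± 0.38, 0.0122) against CTRL, and the difference of APAP_MSC from APAP_PBS was -0.06 ± 0.36. Without APAP_MSC replicate 3 it fell in APAP_PBS as well (0.0446).

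Axin2, a scaffold of the complex that degrades beta-catenin and itself a Wnt-induced feedback gene, was at 2.62, 5.01 and 2.57 CPM in APAP_MSC, at 1.64, 3.69 and 3.22 CPM in APAP_PBS, and at 3.77 and 6.11 CPM in CTRL. Its groups lay close, with APAP_PBS replicate 2 just under the lower CTRL library. It passed in no comparison, with -0.80 ± 0.40 for APAP_PBS against CTRL (edgeR adjusted p = 0.229), -0.55 ± 0.39 for APAP_MSC against CTRL (0.463) and 0.25 ± 0.36 for APAP_MSC against APAP_PBS (0.919). Tbx3, a T-box transcription factor of the pericentral layer, was at 6.59, 11.9 and 5.37 CPM in APAP_MSC, at 3.45, 6.63 and 9.07 CPM in APAP_PBS, and at 10.9 and 18.6 CPM in CTRL. The CTRL pair was wide, and APAP_MSC replicate 2 fell inside it. Tbx3 did not pass either, with -1.22 ± 0.46 for APAP_PBS against CTRL (edgeR adjusted p = 0.144), -0.90 ± 0.46 for APAP_MSC against CTRL (0.305) and 0.32 ± 0.43 for APAP_MSC against APAP_PBS (0.915). With APAP_MSC replicate 2 left out, the last differences were -0.14 ± 0.35 for Axin2 and -0.10 ± 0.40 for Tbx3. Those of APAP_MSC from CTRL were then -0.93 ± 0.38 for Axin2 (edgeR adjusted p = 0.149) and -1.31 ± 0.43 for Tbx3 (0.102).

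Both members of ascorbate synthesis passed as lower in APAP_PBS than CTRL. Rgn, the gluconolactonase that forms the lactone precursor of vitamin C, was at 706, 1098 and 542 CPM in APAP_MSC, at 631, 726 and 635 CPM in APAP_PBS, and at 1471 and 1089 CPM in CTRL. The APAP_PBS libraries differed by 1.15-fold, the narrowest range of any member in that group, and APAP_MSC replicate 2 lay just above the lower CTRL library. Rgn fell in APAP_PBS against CTRL by 0.95 ± 0.26 on the log2 scale (edgeR adjusted p = 0.0497), at the edge of the threshold. The call was lost without CTRL replicate 1 (adjusted p = 0.250), CTRL replicate 2 (0.0857), APAP_PBS replicate 1 (0.147), 2 (0.0899) or 3 (0.127), or APAP_MSC replicate 1 (0.0770), and was 0.00363 without APAP_MSC replicate 2. APAP_MSC differed from CTRL by -0.71 ± 0.26 (edgeR adjusted p = 0.153), or -1.03 ± 0.18 without replicate 2 (0.00512), and from APAP_PBS by 0.24 ± 0.24 (0.879), or -0.09 ± 0.16 without it.

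Gulo, the oxidase of the last step of ascorbate synthesis that humans have lost, was at 158, 229.5 and 180.4 CPM in APAP_MSC, at 112, 158 and 169 CPM in APAP_PBS, and at 296 and 325 CPM in CTRL. All 6 APAP libraries lay below both CTRL libraries, and its APAP_MSC libraries differed by 1.46-fold, the narrowest range of any member in that group. Gulo fell in APAP_PBS against CTRL by 1.08 ± 0.19 (edgeR adjusted p = 0.00711), a call that held in 17 of 18 alternative settings and was lost without CTRL replicate 2 (0.0561). The difference of APAP_MSC from CTRL was -0.71 ± 0.19 (edgeR adjusted p = 0.0542), or -0.87 ± 0.18 without APAP_MSC replicate 2 (0.0135). Gulo also passed without APAP_PBS replicate 1 (0.0345). Its difference of APAP_MSC from APAP_PBS was 0.37 ± 0.17 (0.755), or 0.21 ± 0.16 without APAP_MSC replicate 2.

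**Figure D2:**
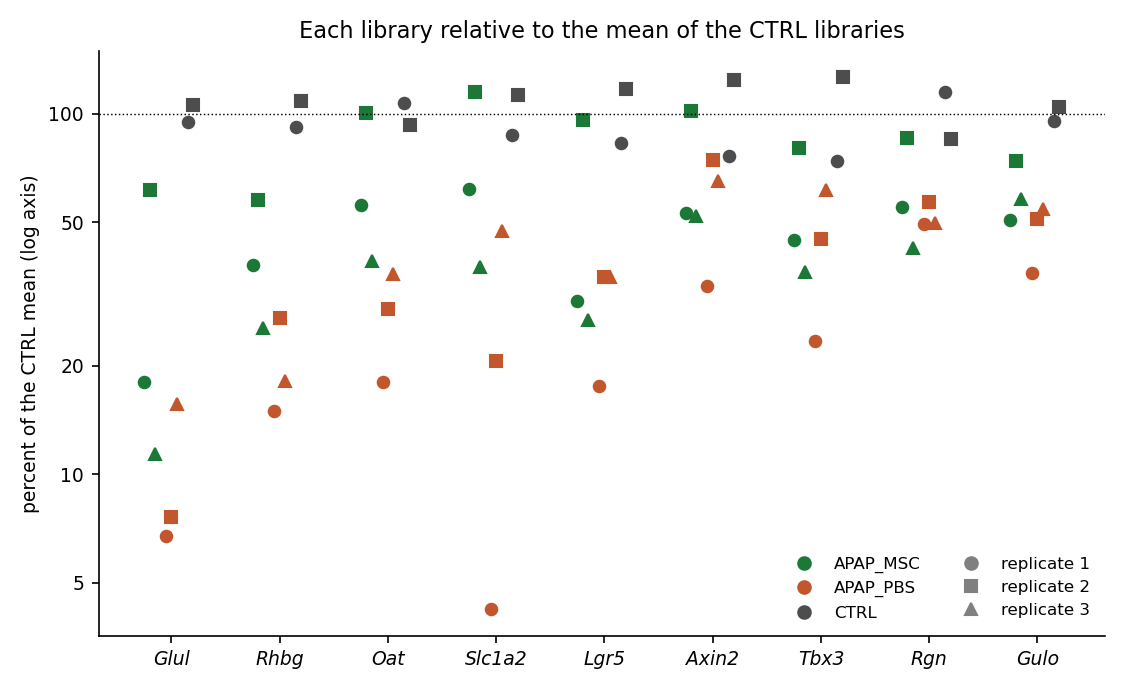
Level of each member in each library as a percent of the CTRL mean, on a log axis, with a colour for each group, a symbol for each replicate number and a dotted line at the CTRL mean. APAP_MSC replicate 2 reads 57.7 percent for Rhbg to 115 percent for Slc1a2, and the group means of APAP_PBS run from 9.99 percent for Glul to 57.6 percent for Axin2.

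As a percent of the CTRL mean, the members differed in how low they stood. In APAP_MSC the group means were 30.3% for Glul, 40.4% for Rhbg, 50.9% for Lgr5, 53.9% for Tbx3, 61.0% for Gulo, 61.1% for Rgn, 65.1% for Oat, 68.8% for Axin2 and 71.4% for Slc1a2. In APAP_PBS they were 9.99% for Glul, 20.1% for Rhbg, 24.0% for Slc1a2, 27.6% for Oat, 29.4% for Lgr5, 43.3% for Tbx3, 47.1% for Gulo, 51.9% for Rgn and 57.6% for Axin2. Glul and Rhbg stood lowest in both groups with all libraries. The 4 genes of ammonium and glutamate handling and Lgr5 stood below the 4 others in APAP_PBS, and Slc1a2 and Oat were among the 3 highest in APAP_MSC. The median over the 9 members was 50.8%, 85.8% and 37.5% in APAP_MSC replicates 1 to 3 and 18.1%, 35.3% and 47.3% in APAP_PBS replicates 1 to 3.

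The libraries ranked alike for most members. APAP_MSC replicate 2 stood at 61.4% of the CTRL mean for Glul, 57.7% for Rhbg, 100.2% for Oat, 115% for Slc1a2, 95.7% for Lgr5, 101% for Axin2, 80.5% for Tbx3, 85.8% for Rgn and 74.0% for Gulo. At the other end, APAP_PBS replicate 1 was the lowest of all 8 libraries for 8 members, all but Rgn, which held for 13.7% of genes. Both held together for 8 members and 5.98% of genes. With replicate 2 left out, the APAP_MSC means were 14.7% of CTRL for Glul, 31.7% for Rhbg, 47.5% for Oat, 49.6% for Slc1a2, 28.5% for Lgr5, 52.5% for Axin2, 40.6% for Tbx3, 48.7% for Rgn and 54.5% for Gulo. These means were below the APAP_PBS means for Lgr5, Axin2, Tbx3 and Rgn, and above them for the other 5 genes. The 3 lowest were then Glul, Lgr5 and Rhbg, and the 3 highest Gulo, Axin2 and Slc1a2, with Oat no longer among them.

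**Figure D3:**
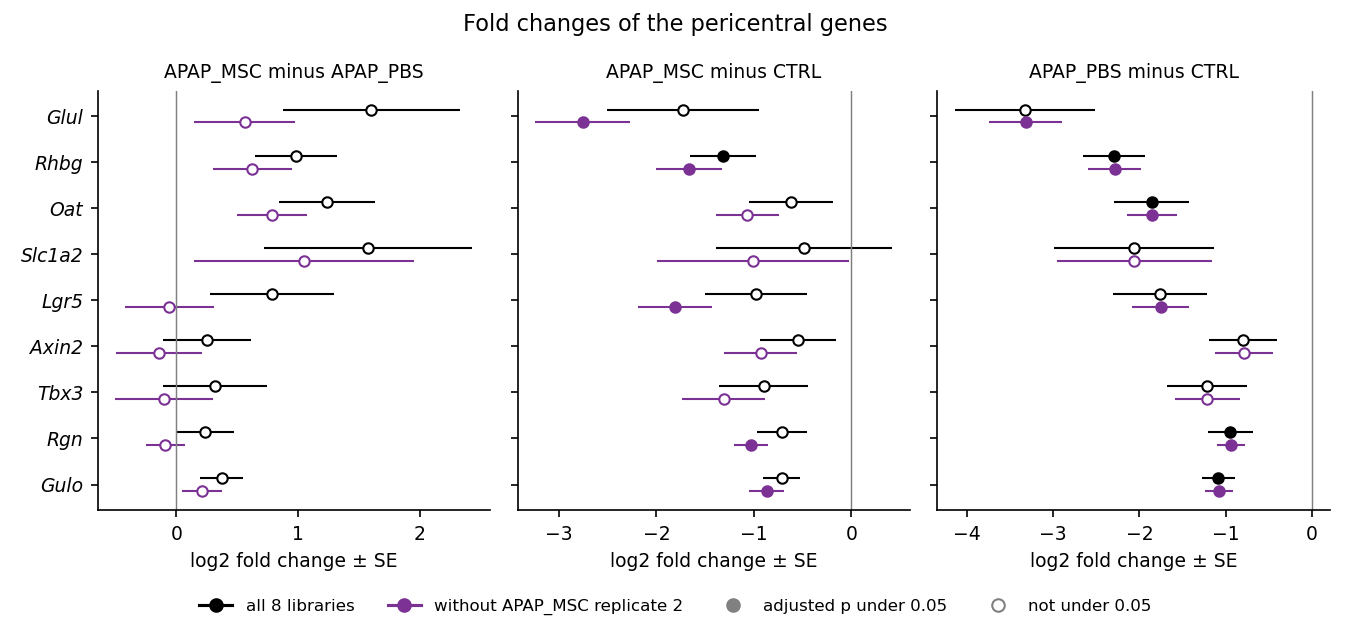
Fitted log2 fold changes of the members with bars of 1 standard error, for APAP_MSC minus APAP_PBS, APAP_MSC minus CTRL and APAP_PBS minus CTRL, with all 8 libraries in black and without APAP_MSC replicate 2 in purple; filled points have an adjusted p under 0.05. For APAP_MSC against APAP_PBS, Glul is at 1.60 with all libraries and at 0.56 without replicate 2, and Lgr5, Axin2, Tbx3 and Rgn lie at or just below 0 without it.

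Each library was left out in turn, and the fit without APAP_MSC replicate 2 is given first because that library stood apart. Without it, the number of members lower in APAP_PBS than CTRL rose to 6, with 920 genes lower in all (7.34%). These were Glul, Rhbg, Oat, Lgr5, Rgn and Gulo. The number lower in APAP_MSC than CTRL became 5 (Glul, Rhbg, Lgr5, Rgn and Gulo), with 733 genes lower in all (5.85%). None differed between APAP_MSC and APAP_PBS, where Glul was at 0.56 ± 0.42 (edgeR adjusted p = 0.778). The number lower in APAP_PBS than CTRL was 2 without CTRL replicate 1, without any 1 of the 3 APAP_PBS replicates and without APAP_MSC replicate 1. It was 1 without CTRL replicate 2, Rhbg alone, and 6 without APAP_MSC replicate 3. The number lower in APAP_MSC than CTRL was 0 without either CTRL replicate, without APAP_PBS replicate 2 or 3 and without APAP_MSC replicate 1 or 3. Over all genes tested, the share lower with 1 library left out ran from 2.35% to 7.34% in APAP_PBS and from 1.07% to 5.85% in APAP_MSC. DESeq2 called 7 members lower in APAP_PBS than CTRL (7.18% of genes with a DESeq2 adjusted p), all but Slc1a2 and Axin2, among them Glul (DESeq2 adjusted p = 0.00164), Lgr5 (0.0123) and Tbx3 (0.0205). It called Rhbg (0.0129), Rgn (0.0284) and Gulo (0.00450) lower in APAP_MSC than CTRL (5.78% of genes).

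Per length, Rgn was the most abundant member in each group and Lgr5 the least. In APAP_MSC the order by mean FPKM was Rgn at 491 ± 153, Oat at 102 ± 43.6, Glul at 89.9 ± 77.0, Gulo at 84.7 ± 12.0, Slc1a2 at 15.3 ± 6.57, Tbx3 at 1.65 ± 0.628, Rhbg at 1.35 ± 0.476, Axin2 at 1.01 ± 0.300 and Lgr5 at 0.516 ± 0.365 (SD, n = 3). In APAP_PBS it was Rgn at 437 ± 41.5, Gulo at 68.1 ± 13.3, Oat at 45.1 ± 13.9, Glul at 33.6 ± 14.1, Slc1a2 at 5.68 ± 5.10, Tbx3 at 1.39 ± 0.578, Axin2 at 1.03 ± 0.610, Rhbg at 0.705 ± 0.221 and Lgr5 at 0.320 ± 0.10 (SD, n = 3). In CTRL it was Rgn at 708 ± 103, Glul at 250.1 ± 45.0, Oat at 139 ± 5.19, Gulo at 123 ± 16.1, Slc1a2 at 21.2 ± 3.85, Rhbg at 2.98 ± 0.551, Tbx3 at 2.75 ± 1.19, Axin2 at 1.29 ± 0.604 and Lgr5 at 0.921 ± 0.282 (SD, n = 2). Glul stood above Oat and Gulo by more than its SD in CTRL, and below the means of both in APAP_PBS. Some neighbours in these orders differed by less than the larger of their SDs. In APAP_MSC these were Oat, Glul and Gulo, and Tbx3, Rhbg and Axin2. In APAP_PBS they were Oat and Glul, Slc1a2 and Tbx3, Tbx3 and Axin2, and Axin2 and Rhbg. In CTRL they were Oat and Gulo, Rhbg and Tbx3, and Axin2 and Lgr5. Axin2 was the one member whose mean FPKM in APAP_MSC did not exceed that in APAP_PBS. The APAP_MSC order depended on replicate 2. The mean of the other 2 libraries was 408 FPKM for Rgn, 78.5 for Gulo, 77.7 for Oat, 45.9 for Glul, 11.7 for Slc1a2, 1.30 for Tbx3, 1.10 for Rhbg, 0.852 for Axin2 and 0.306 for Lgr5. Gulo then stood above Oat and Glul, and Rgn, Tbx3, Axin2 and Lgr5 lay below their APAP_PBS means.

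Genes with a pattern over the 8 libraries most like that of Glul, Rhbg or Oat were sought among 8641 genes with a mean of at least 5 CPM, by the root mean square difference of centred log2 CPM. For Glul these were Hamp2 (0.42), Susd4 (0.45), Scd1 (0.48), Fabp5 (0.50) and Acss2 (0.57). Hamp2, a hepcidin gene, averaged 14.2 ± 7.52 CPM in APAP_MSC, 6.55 ± 1.25 CPM in APAP_PBS (SD, n = 3 each) and 47.2 ± 0.0400 CPM in CTRL (SD, n = 2). Scd1 and Acss2 are enzymes of fatty acid desaturation and acetyl-CoA formation. The closest member to Glul was Rhbg (0.70), with 14 eligible genes nearer, then Oat (0.72) and Lgr5 (0.73). For Rhbg the nearest genes were Elovl5 (0.21), Sucnr1 (0.24), Acacb (0.28), Ugt1a5 (0.30) and Hamp2 (0.32), and the nearest members Oat (0.36) and Lgr5 (0.38). For Oat they included Sucnr1 (0.30), Nr1d1 (0.31), Ugt1a5 (0.39) and Khk (0.40), with 2 eligible genes nearer than Rhbg. Genes outside the members therefore lay nearest to each of the 3. Over the 7 libraries other than APAP_MSC replicate 2, 3 of the 5 genes nearest to Glul, 4 of the 5 nearest to Rhbg and 2 of the 5 nearest to Oat were the same. Rhbg remained the member closest to Glul, with 22 eligible genes nearer, and Rhbg and Oat remained the members closest to each other, with 8 eligible genes nearer on either side.

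Outside the members, 46 Wnt ligands, receptors, inhibitors and transducers were tested, of which 2 (4.35%) passed as higher and 2 (4.35%) as lower in APAP_PBS against CTRL. These shares lay near the 4.29% and 5.97% of all genes. Of 8 listed ligands and R-spondins, 6 could be tested and 0 passed in any comparison, with a median log2 fold change of -0.48 for APAP_PBS against CTRL and -0.15 for APAP_MSC against CTRL. Wnt2, a ligand of the central vein endothelium, was at 1.05, 1.88 and 1.87 CPM in APAP_MSC, at 0.678, 1.20 and 1.11 CPM in APAP_PBS, and at 1.92 and 1.83 CPM in CTRL (-0.90 ± 0.39 for APAP_PBS against CTRL, edgeR adjusted p = 0.164). Rspo3, the R-spondin of the same endothelium, was at 3.44, 5.10 and 2.96 CPM in APAP_MSC, at 2.66, 3.35 and 3.57 CPM in APAP_PBS, and at 3.99 and 4.18 CPM in CTRL (-0.36 ± 0.27, edgeR adjusted p = 0.449). For both genes the APAP_PBS libraries lay below CTRL by less than the test could call. Wnt11 and Rspo1 were too low to test, at no more than 0.0585 and 0.117 CPM.

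Of 11 receptors and coreceptors other than Lgr5, 1 passed as lower in APAP_PBS than CTRL and 0 as higher, with a median of -0.12. That gene was Fzd8, a frizzled receptor, at 9.10, 8.50 and 7.20 CPM in APAP_MSC, 5.88, 6.59 and 6.08 CPM in APAP_PBS, and 10.1 and 13.5 CPM in CTRL (-0.94 ± 0.18, edgeR adjusted p = 0.00817). Lgr4, the close relative of Lgr5, was at -0.03 ± 0.13 (edgeR adjusted p = 0.915). Of 13 inhibitors and feedback genes other than Axin2, 1 passed as higher and 0 as lower (median -0.07). This was Axin1, the constitutive relative of Axin2, at 22.1, 23.0 and 25.7 CPM in APAP_MSC, 23.2, 24.9 and 26.1 CPM in APAP_PBS, and 16.6 and 17.4 CPM in CTRL. Axin1 rose in APAP_PBS (0.54 ± 0.12, edgeR adjusted p = 0.0198) and in APAP_MSC (0.47 ± 0.12, edgeR adjusted p = 0.0474) against CTRL. Notum, a Wnt-inactivating enzyme made by pericentral hepatocytes, was at 6.01, 10.2 and 8.53 CPM in APAP_MSC, 5.60, 9.53 and 8.25 CPM in APAP_PBS, and 14.6 and 12.9 CPM in CTRL, short of the threshold (-0.81 ± 0.25, edgeR adjusted p = 0.0621).

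Among 16 transducers and cofactors, 1 passed as higher and 1 as lower in APAP_PBS against CTRL (median 0.04). Tcf7, a DNA-binding partner of beta-catenin, fell by 1.21 ± 0.28 (edgeR adjusted p = 0.0197), with 1.92, 1.61 and 2.22 CPM in APAP_MSC, 1.64, 1.45 and 1.76 CPM in APAP_PBS, and 3.20 and 4.23 CPM in CTRL. Bcl9l, a coactivator of beta-catenin, rose by 0.57 ± 0.14 (edgeR adjusted p = 0.0220). Ctnnb1, the beta-catenin gene itself, was at -0.04 ± 0.10 (edgeR adjusted p = 0.834), and Lef1 was too low to test. The list of Wnt targets shares genes with other lists. Rnf43, Znrf3, Nkd1 and Notum are also among the inhibitors, and Cyp1a2, Cyp2e1 and Sp5 among the other pericentral genes below. Of the 9 listed Wnt targets outside the members, 1 passed as lower and 0 as higher (median -0.34). It was Cyp1a2, an APAP-oxidizing P450, at 414, 364 and 422 CPM in APAP_MSC, 225, 367 and 282 CPM in APAP_PBS, and 469 and 502 CPM in CTRL (-0.74 ± 0.18, edgeR adjusted p = 0.0233). In APAP_MSC against CTRL, Axin1 and Bcl9l (0.61 ± 0.14, edgeR adjusted p = 0.0256) were higher, and no gene of these 5 lists outside the members was lower. Without APAP_MSC replicate 2 and with the members included, 2 receptors were lower in APAP_PBS than CTRL, and 2 inhibitors were higher and 1 lower. Without CTRL replicate 2, no ligand, receptor, inhibitor or transducer passed in that comparison.

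Other genes of the pericentral zone had a median fold change nearer to 0 than the 9. Of 32 listed, 7 passed as lower and 3 as higher in APAP_PBS against CTRL, and the median log2 fold change was -0.31. Aside from Cyp1a2, the lower ones included the P450 genes Cyp2c29, Cyp2c50, Cyp3a11 and Cyp27a1 and the organic cation transporter Slc22a3. Slc22a3 was at 0.642, 1.92 and 1.09 CPM in APAP_MSC, at 0.565, 0.331 and 0.702 CPM in APAP_PBS, and at 2.71 and 4.14 CPM in CTRL, and fell by 2.71 ± 0.48 in APAP_PBS (edgeR adjusted p = 0.00679). Cyp2c29 was at 1273, 1832 and 971 CPM in APAP_MSC, at 797, 836 and 1219 CPM in APAP_PBS, and at 1935 and 2324 CPM in CTRL, and fell by 1.16 ± 0.27 (edgeR adjusted p = 0.0253). Both had their highest APAP library in APAP_MSC replicate 2, as Glul did. The 3 higher genes were Ang (1.33 ± 0.20, edgeR adjusted p = 0.00367) and Rnase4 (1.16 ± 0.21, 0.00711), which encode secreted ribonucleases from a shared locus, and Nr1i3 (1.10 ± 0.20, 0.00934), the nuclear receptor CAR. Cyp2e1, the main APAP-oxidizing P450, was at 3132, 4724 and 3304 CPM in APAP_MSC, at 1788, 3086 and 3482 CPM in APAP_PBS, and at 3279 and 3356 CPM in CTRL, and did not pass (-0.25 ± 0.27, edgeR adjusted p = 0.607). Some of the 32 lay far from their median in APAP_PBS against CTRL without passing. Among these, Cyp7a1 was at -3.29 ± 0.79 (edgeR adjusted p = 0.0602), Cyp2a4 at 5.53 ± 1.77 (0.121) and Cyp2a5 at 1.96 ± 0.54 (0.0741). In APAP_MSC against CTRL, 3 of the 32 passed as higher and 1, Cyp3a11, as lower (-1.35 ± 0.15).

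Of 23 genes of the periportal zone, 6 passed as lower and 2 as higher in APAP_PBS against CTRL, with a median of -0.22. The lower ones included Cyp2f2, a periportal P450 (-1.17 ± 0.16, edgeR adjusted p = 0.00200), and Ass1 of the urea cycle (-0.79 ± 0.14, 0.00725), and the higher ones were Ctsc (1.22 ± 0.15, 0.00105) and Pck1 (1.91 ± 0.41, 0.0281). As a median percent of CTRL per library, the periportal genes stood at 81.5%, 81.8% and 78.6% in APAP_MSC and at 76.9%, 80.8% and 85.2% in APAP_PBS. The 32 other pericentral genes stood at 82.9%, 107% and 78.1% in APAP_MSC and at 74.2%, 84.3% and 86.8% in APAP_PBS. APAP_MSC replicate 2 exceeded the other APAP libraries in the medians of both pericentral sets, and in that of the 11 general hepatocyte genes, at 82.7%, 103% and 91.2% in APAP_MSC and 77.4%, 84.8% and 88.6% in APAP_PBS. It did not do so in the periportal median. It was the highest APAP library for 16 of the 32 other pericentral, 9 of the 23 periportal and 4 of the 11 hepatocyte genes (22.2% of all genes). Its sum over the 11 hepatocyte genes, 95753 CPM, was the lowest of APAP_MSC. That sum lay below those of APAP_PBS replicates 2 and 3 (100760 and 102763 CPM) and above that of APAP_PBS replicate 1 (88769 CPM). Without APAP_MSC replicate 2 the counts in APAP_PBS against CTRL were 7 lower and 5 higher of the 32, and 8 lower and 2 higher of the 23. In APAP_MSC against CTRL they were 6 lower and 6 higher of the 32 and 8 lower and 1 higher of the 23. Without CTRL replicate 2 the counts in APAP_PBS against CTRL were 1 lower and 2 higher in each of these sets. Without APAP_PBS replicate 1 they were 3 lower and 3 higher of the 32 and 3 lower and 1 higher of the 23.

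**Figure D4:**
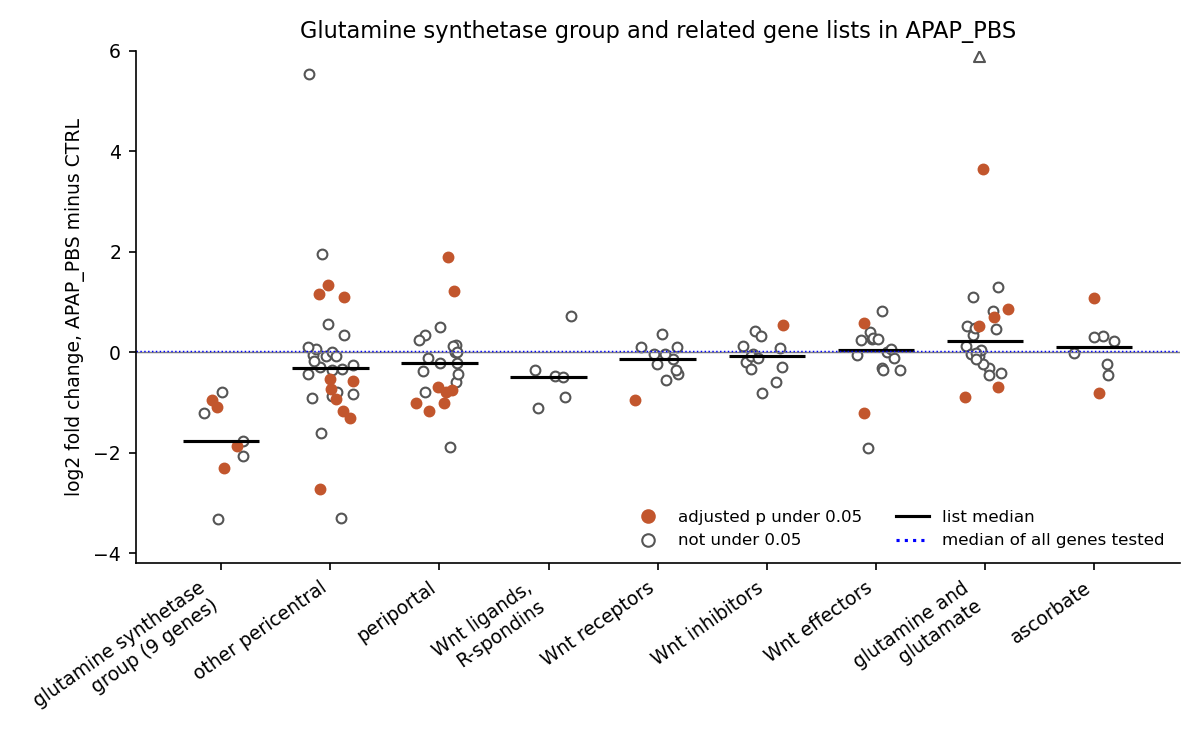
Log2 fold change of APAP_PBS against CTRL for every tested gene of the members and of 8 related lists without the members, with filled points at an adjusted p under 0.05, a line at each list's median and a dotted line at the median of all genes. The members' median is -1.76, those of the other pericentral and periportal genes are -0.31 and -0.22, and the triangle is Slc7a11, which lies beyond the axis and was at 0 in both CTRL libraries.

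Around Glul and Slc1a2, of 24 further genes of glutamine and glutamate metabolism, 4 passed as higher and 2 as lower in APAP_PBS against CTRL (median 0.23). Glud1, glutamate dehydrogenase, which releases ammonium from glutamate, rose by 0.70 ± 0.12 in APAP_PBS (edgeR adjusted p = 0.00636) and by 0.63 ± 0.12 in APAP_MSC (0.0139) against CTRL. It was at 1333, 1331 and 1221 CPM in APAP_MSC, at 1367, 1336 and 1362 CPM in APAP_PBS, and at 887 and 787 CPM in CTRL, so that its 6 APAP libraries agreed closely where those of Glul did not. The other higher genes were Gclc (0.86) and Gclm (0.53 ± 0.10), which make the first intermediate of glutathione from glutamate, and Psat1 (3.64 ± 0.74) of serine synthesis. Gls2, the liver glutaminase of the periportal zone, was at 178, 239 and 198 CPM in APAP_MSC, at 165, 193 and 188 CPM in APAP_PBS, and at 290.4 and 293 CPM in CTRL, and fell in APAP_PBS by 0.68 ± 0.14 (edgeR adjusted p = 0.0110). Slc38a3, a glutamine transporter, fell in APAP_PBS by 0.90 ± 0.16 (edgeR adjusted p = 0.00711), with 451, 635 and 561 CPM in APAP_MSC, 528, 448 and 537 CPM in APAP_PBS, and 841 and 1037 CPM in CTRL. Without APAP_MSC replicate 2, 6 of the 24 passed as higher and 2 as lower, and without CTRL replicate 2, 1 as higher and 0 as lower.

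Beside Oat, of 11 further genes of ornithine and proline metabolism 2 passed as lower in APAP_PBS than CTRL and 0 as higher (median -0.21). Prodh, proline dehydrogenase, was at 88.7, 91.0 and 80.2 CPM in APAP_MSC, at 91.3, 99.9 and 84.9 CPM in APAP_PBS, and at 178 and 196 CPM in CTRL. It fell by 1.02 ± 0.11 in APAP_PBS (edgeR adjusted p = 0.000481) and by 1.11 ± 0.11 in APAP_MSC (0.000342), and unlike Oat its APAP groups overlapped. The other lower gene in APAP_PBS was Aldh4a1, the next enzyme of proline breakdown (-0.51 ± 0.12, edgeR adjusted p = 0.0251), and in APAP_MSC it was Otc of the urea cycle (-0.90 ± 0.23, 0.0487). Beside Rhbg, 3 further genes of ammonium handling were tested and 1 passed as lower. This was Aqp8, a channel for water and ammonia, at 73.3, 116 and 58.8 CPM in APAP_MSC, 49.0, 58.0 and 60.1 CPM in APAP_PBS, and 337 and 263 CPM in CTRL. It fell by 2.43 ± 0.26 in APAP_PBS (edgeR adjusted p = 0.00141) and by 1.86 ± 0.26 in APAP_MSC (0.00660). Rhcg and Rhag, the Rh relatives of Rhbg, were at 0 in all 8 libraries, which allows up to 0.122 to 0.184 CPM before TMM normalization.

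Beside Rgn and Gulo, of 8 further genes of ascorbate synthesis, transport and recycling 1 passed as lower and 1 as higher in APAP_PBS against CTRL (median 0.11). Slc23a1, a vitamin C transporter, was at 46.0, 40.8 and 32.9 CPM in APAP_MSC, at 39.3, 35.6 and 32.7 CPM in APAP_PBS, and at 60.0 and 65.2 CPM in CTRL. It fell in APAP_PBS by 0.80 ± 0.14 (edgeR adjusted p = 0.00688). Slc2a1, a transporter of glucose and oxidized vitamin C, rose by 1.07 ± 0.21 (edgeR adjusted p = 0.00996), with 14.6, 9.93 and 15.5 CPM in APAP_MSC, 16.2, 15.0 and 12.1 CPM in APAP_PBS, and 6.76 and 6.91 CPM in CTRL.

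Markers of other liver cells moved with the groups to differing degrees. Of 16 endothelial genes, the cells that send Wnt signals to the members, 1 passed as higher and 1 as lower in APAP_PBS than CTRL, and their sum was 408 to 461 CPM in APAP_MSC, 398 to 468 CPM in APAP_PBS and 423 to 459.5 CPM in CTRL. The members summed to 977 to 2219 CPM in APAP_MSC, 860.3 to 1091 CPM in APAP_PBS and 2595 to 2885 CPM in CTRL. Of 11 hepatocyte genes, 2 passed as lower in APAP_PBS (Ttr and Apoc3) and 0 as higher, within the sums given above. Of 10 monocyte and macrophage genes 2 passed as higher, summing to 199.8 to 255 CPM in APAP_MSC, 218 to 383 CPM in APAP_PBS and 182 to 253 CPM in CTRL. Of 5 tested neutrophil genes 2 passed as higher, summing to 3.39 to 5.19 CPM in APAP_MSC, 4.86 to 23.6 CPM in APAP_PBS and 2.21 to 2.92 CPM in CTRL, and the defining genes Ly6g and Mpo were at 0 in most libraries. APAP_PBS replicate 1, the lowest library for 8 members, had the highest neutrophil sum (23.6 CPM) and the highest monocyte and macrophage sum (383 CPM). Of 10 stellate cell genes 3 passed as higher, summing to 243 to 259 CPM in APAP_MSC, 271 to 279 CPM in APAP_PBS and 248 to 262 CPM in CTRL. None of 6 Kupffer cell genes passed, with sums of 165 to 279 CPM in APAP_MSC, 165 to 272 CPM in APAP_PBS and 182 to 241 CPM in CTRL. Of 6 cholangiocyte genes 1 passed as higher, with sums of 63.0 to 68.6 CPM in APAP_MSC, 85.0 to 107 CPM in APAP_PBS and 63.0 to 95.2 CPM in CTRL. Of 5 erythroid genes 1 passed as lower and 0 as higher, with sums of 60.7 to 124 CPM in APAP_MSC, 71.0 to 156 CPM in APAP_PBS and 137.5 to 141 CPM in CTRL. The lower gene was Alas2, the first enzyme of haem synthesis in red cell precursors, which made up most of each CTRL sum (-1.09 ± 0.26, edgeR adjusted p = 0.0308). The 4 globin genes had log2 fold changes above 0 in APAP_PBS against CTRL, up to 3.03 for Hba-a2, and did not pass (edgeR adjusted p = 0.129 to 0.290). The median of the 5 was 1509% of CTRL in APAP_PBS replicate 1, the highest of any library. Without CTRL replicate 2 no gene of these marker lists but 1 stellate gene passed in APAP_PBS against CTRL. The part of these cells in the levels of the members was not tested.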

How the data were processed

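Liver mRNA was sequenced in 8 samples: 3 of APAP_MSC, 3 of APAP_PBS and 2 of CTRL, grouped by title. Per the labels' protocols, Trizol RNA was enriched on oligo(dT) beads and made into NEBNext Ultra libraries. The authors deposited estimated counts per Ensembl gene, per the file headers, and 6.39% to 7.46% of the values in a library were not whole. Values were rounded before testing. The authors also deposited FPKM, per the file headers, used here for levels per length and, as log2(FPKM + 1), for an alternative test whose fold changes understate low genes. Per the submitters' processing notes, fastp 0.18.0 was among the tools. An aligner, quantifier or genome build was not given in the sources used here. GENCODE M21 (GRCm38) named 22128 of 22183 IDs.

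Genes were filtered with filterByExpr (12722 left), scaled by TMM and fitted with edgeR 4.0.16 (R 4.3.3; robust glmQLFit, 1 coefficient per group, all 8 libraries). Standard errors are the fold change's size over the root of F. A gene was called at a Benjamini-Hochberg adjusted p under 0.05, and the code was tested on simulated data. Alternatives used DESeq2 1.42.0, limma 3.58.1, other scalings and filters, a replicate block, the 2 groups compared alone, and each library left out in turn. Replicates of a group differed beyond sampling noise, at 13.0 to 67.9 times the chi-square that counting error gives. Limits that a count of 0 allows cover counting error only.

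The members and the gene lists were chosen with earlier results of these data known. Named genes are the members and, from each list, up to 5 with the smallest adjusted p in APAP_PBS against CTRL and up to 3 in APAP_MSC against APAP_PBS. Genes too low to test, and others that a comparison turned on, were named after their values were seen. List counts without single libraries, and overlap of groups on other scales, were added after seeing the data. Some genes that the rule names are not reported here.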

Additional observations from a re-analysis of the deposited data

How the results depend on the processing

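In APAP_PBS against CTRL and in APAP_MSC against CTRL, all 9 members had log2 fold changes below 0 in all 18 alternative settings, while their calls depended on the setting. For APAP_PBS against CTRL, 4 members, 546 higher and 760 lower genes were called. Scaling by library size gave 1620 higher and 371 lower genes, limma on log2(FPKM + 1) 1188 and 326, and on log2(FPKM + 0.1) 1366 and 332. Library-size scaling moved the median gene by 0.24 and log2(FPKM + 1) by 0.21. Members called lower were 2 with no filter (4.25% of genes) and 7 by DESeq2 (7.18%). For APAP_MSC against CTRL (1 member, 321 higher and 422 lower genes), library size gave 755 and 236, DESeq2 513 and 688, log2(FPKM + 1) 498 and 207, log2(FPKM + 0.1) 599 and 206, and the 2 groups alone 124 and 170. Members called lower were 0 by library size (1.86% of genes), log2(FPKM + 0.1) (1.62%), the 2 groups alone (1.36%) and without robust estimation (3.36%). They were 2 with a stricter filter (4.12%) and 3 by DESeq2 (5.78%). For APAP_MSC against APAP_PBS (0 higher, 1 lower), DESeq2 called 16 and 22 genes, and limma at either pseudocount, the 2 groups alone and the fit without robust estimation called 0 as lower. The cause was not tested.

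Leaving out single libraries gave 175 to 790 higher genes, 303 to 920 lower genes and 1 to 6 members lower in APAP_PBS than CTRL, 119 to 657, 141 to 733 and 0 to 5 in APAP_MSC against CTRL, and 0 to 1 higher and 0 to 1 lower genes in APAP_MSC against APAP_PBS. In that last comparison the members' uncalled fold changes were above 0 in 67 of 72 such fits. Below 0 were Lgr5 (-0.058), Axin2 (-0.14), Tbx3 (-0.099) and Rgn (-0.089) without APAP_MSC replicate 2, and Axin2 (-0.022) without APAP_PBS replicate 1. The highest values were 1.11 for Lgr5, 0.49 for Axin2, 0.64 for Tbx3 and 0.44 for Rgn.

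Same-numbered libraries correlated between -0.15 and 0.19 in their deviations from the group means. Both ends of this range are pairs with CTRL, and the deviations of the 2 CTRL libraries mirror each other by construction. Same-numbered libraries of APAP_PBS and APAP_MSC correlated at -0.0017, -0.016 and -0.063. These lay within the range of -0.10 to 0.12 for differently numbered libraries of these groups. Deviations cancel within each group by construction, so these values cannot decide whether the numbers pair libraries. The replicate block gave 333 higher and 460 lower genes (3.62%) in APAP_PBS against CTRL. Members lower there were 2, without Oat (edgeR adjusted p = 0.141) and Rgn (0.117). In APAP_MSC against CTRL the block gave 135 higher and 186 lower genes (1.46%). Gulo was the 1 member that passed as lower there, and Rhbg did not pass (edgeR adjusted p = 0.0722). Rhbg, Lgr5 and Axin2 were at a few CPM, so counting error adds to their spread.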
